A study of Mus musculus with 6 samples.

Results

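Motile cilium and axoneme genes were examined in whole lungs of mice with EGFR-driven lung cancer fed a high-fat diet or a regular diet. The 41 genes are a named list of structural proteins, regulators and markers of airway cells with motile cilia. The rule that sets the list uses no measured value, but the list was drawn up with earlier results of these data known. Of these, 38 had a probe set of their own on the array, out of 18193 genes with one, and each was read from its probe set with the highest mean over the 6 arrays. Mcidas, Cfap44 and Sntn were not read, and Dnai2 was found under its older symbol Dnaic2.

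The LC-HFD group (n = 3 mice) received a high-fat diet, in which fat supplied 60% of the energy, and the LC-RD group (n = 3 mice) received a regular diet. Both groups carried the CC10-rtTA and tet-O-EGFR-L858R transgenes and both received doxycycline, so all 6 lungs came from mice with induced mutant EGFR, and lungs without induction were not analysed here. The CC10 promoter, that of Scgb1a1, drives the transactivator in club cells and related airway and alveolar epithelium. The methods describe adult male mice of 6 to 8 weeks at the start, kept for 2 weeks on their diet and then for 8 weeks on the same diet with doxycycline. The labels instead give 8 weeks of high-fat feeding and 7 weeks of doxycycline, and they give doxycycline doses of 625 ppm (diet) and 2 mg/ml (drinking water).

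Motile cilia stand in large numbers on the multiciliated cells of the airway, next to club and goblet cells, and their beating moves mucus out of the lung. The shaft, or axoneme, is a ring of doublet microtubules around a central pair. Outer and inner dynein arms slide neighbouring doublets past each other. Radial spokes, the nexin-dynein regulatory complex and the central apparatus set the rhythm, and tektins and other proteins brace the doublets from within. Foxj1 and factors of the RFX family switch on the genes of these parts, and RFX proteins bind an inverted repeat known as the X-box.

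The promoters are shown first, because an RFX gene was among the members that differed between the groups on their brightest probe set. RefSeq promoter windows of GRCm38.p6, which run from 250 bases before to 50 bases after the annotated gene start, existed for 37 of the 41 genes, 44 windows in all, since 4 genes had more than 1 annotated start. A gene counts as holding a motif when any of its windows does. Foxj1, Rsph1, Rsph4a and Tppp3 had none. The X-box was searched on both strands as RFX half-sites facing each other across a short spacer, with a half-site ending in CC required. Of the 37 genes, 7 (18.9%) held a match, against 474 of all 27025 genes with a window (1.75%). Facing repeats without that CC, such as those before the starts of Tekt4 and Dnah6, were not counted. The matches are given 5′ to 3′ on the strand of the gene, with the matched letters in capitals and 10 bases on each side. The match of Spef2, which lies after the gene start, is given without flanks.
Dnai2, chr11:114727376-114727408, plus strand: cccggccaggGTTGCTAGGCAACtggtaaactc
Spag16, chr1:69826857-69826890, plus strand: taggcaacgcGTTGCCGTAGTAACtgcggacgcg
Hydin, chr8:110266946-110266979, plus strand: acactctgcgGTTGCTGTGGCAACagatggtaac
Tekt2, chr4:126325695-126325727, minus strand: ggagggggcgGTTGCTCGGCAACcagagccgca
Lrrc23, chr6:124779869-124779901, minus strand: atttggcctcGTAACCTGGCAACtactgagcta
Cfap44, chr16:44394762-44394795, plus strand: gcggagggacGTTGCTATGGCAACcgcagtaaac
Spef2, chr15:9748846-9748860, minus strand: GTTGCCCTGGGCGAC
The centres of these matches lay between positions -158 (Lrrc23) and 15 (Spef2) relative to the gene start, where negative positions lie before it. Dnai2 and Spag16 belong to the members that were lower in LC-HFD lungs. The differences of Hydin, Tekt2, Lrrc23 and Spef2 did not pass the test, and Cfap44 was not read.

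The single RFX half-site GTTGCC, searched on both strands, was found in 17 of the 37 genes (45.9%), against 3821 of all 27025 genes with a window (14.1%). It occurred at 23 places in their windows, and 7 of those matches lay inside the X-boxes above. Among the members that were lower in LC-HFD lungs, Rfx3, Tekt4, Enkur and Ccdc113 held a half-site but no match to the X-box pattern searched. Their half-sites are shown here in capitals because these genes return in the results.
Rfx3, chr19:28011120-28011145, minus strand: tatagcaaccGTTGCCttgtgaatca
Tekt4, chr17:25471588-25471613, plus strand: atgttccttaGGCAACcaggaacctt
Enkur, chr2:21205384-21205409, minus strand: taaaagccagGTTGCCccgtctccta
Ccdc113, chr8:95534084-95534109, plus strand: cagttgtctaGGCAACgcgcctcagg
The Enkur half-site was centred at -32 and that of Ccdc113 at -4 relative to the gene start, and those of Tekt4 (10) and Rfx3 (34) lay after it. The forkhead motif GTAAACA, of the kind bound by Foxj1, was found on either strand in 3 of the 37 genes (8.11%, Cfap43, Ak7 and Sntn), against 4.05% of all genes with a window.

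The 250 bases before the start of Dnai2 and Spag16 are shown in full, as the pair of lower members with a match to the X-box pattern. Capitals mark the X-box and any half-site.
Dnai2, chr11:114727169-114727418, plus strand: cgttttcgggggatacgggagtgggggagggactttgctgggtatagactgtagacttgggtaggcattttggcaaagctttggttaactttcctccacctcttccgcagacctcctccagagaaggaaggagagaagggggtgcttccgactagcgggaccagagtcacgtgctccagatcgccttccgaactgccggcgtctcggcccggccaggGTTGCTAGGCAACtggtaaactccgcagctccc
Spag16, chr1:69826720-69826969, plus strand: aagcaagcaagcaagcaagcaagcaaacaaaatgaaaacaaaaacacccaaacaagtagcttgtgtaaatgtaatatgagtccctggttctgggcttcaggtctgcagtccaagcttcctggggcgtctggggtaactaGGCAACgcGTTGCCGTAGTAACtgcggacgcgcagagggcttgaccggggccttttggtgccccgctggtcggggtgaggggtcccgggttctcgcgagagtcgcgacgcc
In Spag16 a further half-site on the opposite strand, centred at -108, lay next to the X-box at -96. In Dnai2 the X-box was centred at -27. Of the 9 lower members with a window, 2 held a match to the X-box pattern and 6 a half-site. Of the 24 members with a window that did not pass, 4 and 8 did. Facing repeats outside the pattern, as in Tekt4 and Dnah6, are not in these counts. These are letter matches, and binding of RFX proteins was not measured.

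**Figure D1:**
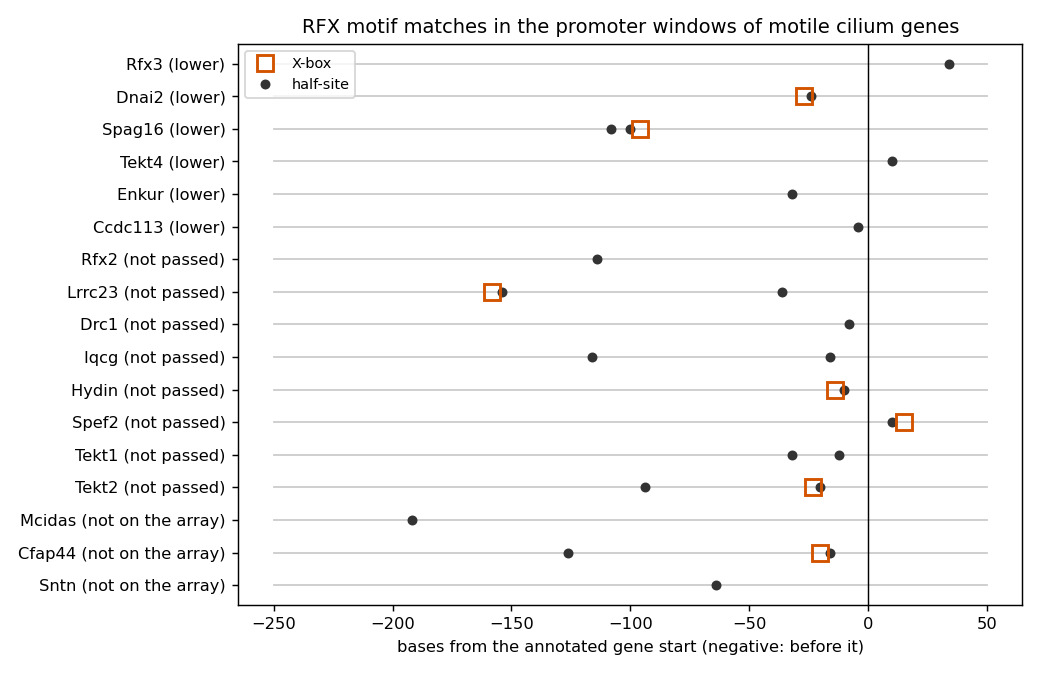
Positions of RFX motif matches in the promoter windows of the 17 genes that held at least 1 half-site. The x axis gives bases from the annotated gene start, each grey line is 1 gene's window of 300 bases (for genes with several starts, the first listed window that holds the match), open squares mark X-boxes, dots mark half-sites, and the word in brackets is the result in LC-HFD relative to LC-RD lungs. Most matches lie before the start, and X-boxes occur both in genes that were lower and in genes that did not pass.

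Each lung was measured on 1 array, and values are on the log2 scale, so that a difference of 1 is a 2-fold change. A gene is called lower or higher when limma's p-value, adjusted by the Benjamini-Hochberg method over all 45037 probe sets, was under 0.05. These p-values measure the spread between 3 mice a group. The array medians were 4.78 to 4.83. Hybridization controls, which are added to the labelled sample, read 11.49 to 11.53 on the LC-HFD arrays and 10.01 to 10.04 on the LC-RD arrays, and 18S rRNA probe sets read 7.57 to 7.69 on LC-HFD arrays and 12.51 to 12.54 on LC-RD arrays. Diet and the handling of the arrays therefore cannot be told apart, and this holds for each difference given here. Markers of alveolar type II cells, which make surfactant in the lung, had array means of 12.6 to 12.7 in LC-HFD and 12.6 in LC-RD lungs. Sftpc of that list read 13.81 on every array, so a ceiling of the signal may hide differences in these means.

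A minority of the motile cilium genes, from most parts of the axoneme, were lower in the lungs of LC-HFD mice. The largest of those differences, in the spoke head gene Rsph4a and the ruler gene Ccdc39, slightly exceeded 2-fold. Rsph4a passed in all 16 alternative settings that tested it, while the call of Ccdc39 was lost in 6 of 16. Of the 38 measured genes, 10 were lower (26.3%), 1 was higher (2.63%) and 27 did not pass. Over all probe sets, 13.6% were lower and 11.3% were higher, and over the brightest probe set of every gene 16.2% were lower and 11.1% higher. Members past 2-fold, Rsph4a and Ccdc39, numbered 2 of 38, against 1.73% of all probe sets and 1.68% of the brightest ones. The share of lower members was above the background and the share of higher members below it. The median log2 difference over the members was -0.14 (range -1.05 to 0.35), against 0.04 over all probe sets and 0.02 over the brightest probe set of every gene. A lower value in whole lung can come from a smaller share of ciliated cells in the tissue or from less RNA per cell, and these cannot be told apart. The paper reports heavier lungs and a greater tumor burden in LC-HFD than in LC-RD mice. The part of these in the values was not tested.

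The count rested on few arrays. Without LC-RD replicate 1 or without LC-RD replicate 2, 6 members were lower in place of 10, and without LC-RD replicate 1 none was higher. LC-RD replicate 3 had the lowest value of its group for 25 of the 38 members (65.8%), against 41.9% of all 18193 genes, and without it 10 members were lower, 1 was higher and the median was -0.23. The mean over the members was 5.06, 5.12 and 5.16 on the LC-HFD arrays and 5.39, 5.40 and 5.27 on the LC-RD arrays, so by this mean every LC-HFD lung lay under every LC-RD lung. Groups did not overlap in 13 members that were lower and 1 that was higher in LC-HFD lungs, against 26.8% lower and 22.3% higher over the brightest probe set of every gene. The excess of 3′ over 5′ signal in control transcripts, a measure of RNA integrity, was 1.58 to 1.70 on LC-HFD arrays and 1.70 to 1.76 on LC-RD arrays. Every LC-HFD array lay under every LC-RD array in it, though LC-HFD replicate 3 (1.696) and LC-RD replicate 1 (1.703) nearly touched. In a fit with that excess as a term 6 members were lower and none higher, with the calls of Dnai2, Ccdc39, Spag16 and Ccdc113 lost among the lower ones. Here and below, such a fit cannot fully separate the excess from the group, and the cause of lost calls was not tested.

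**Figure D2:**
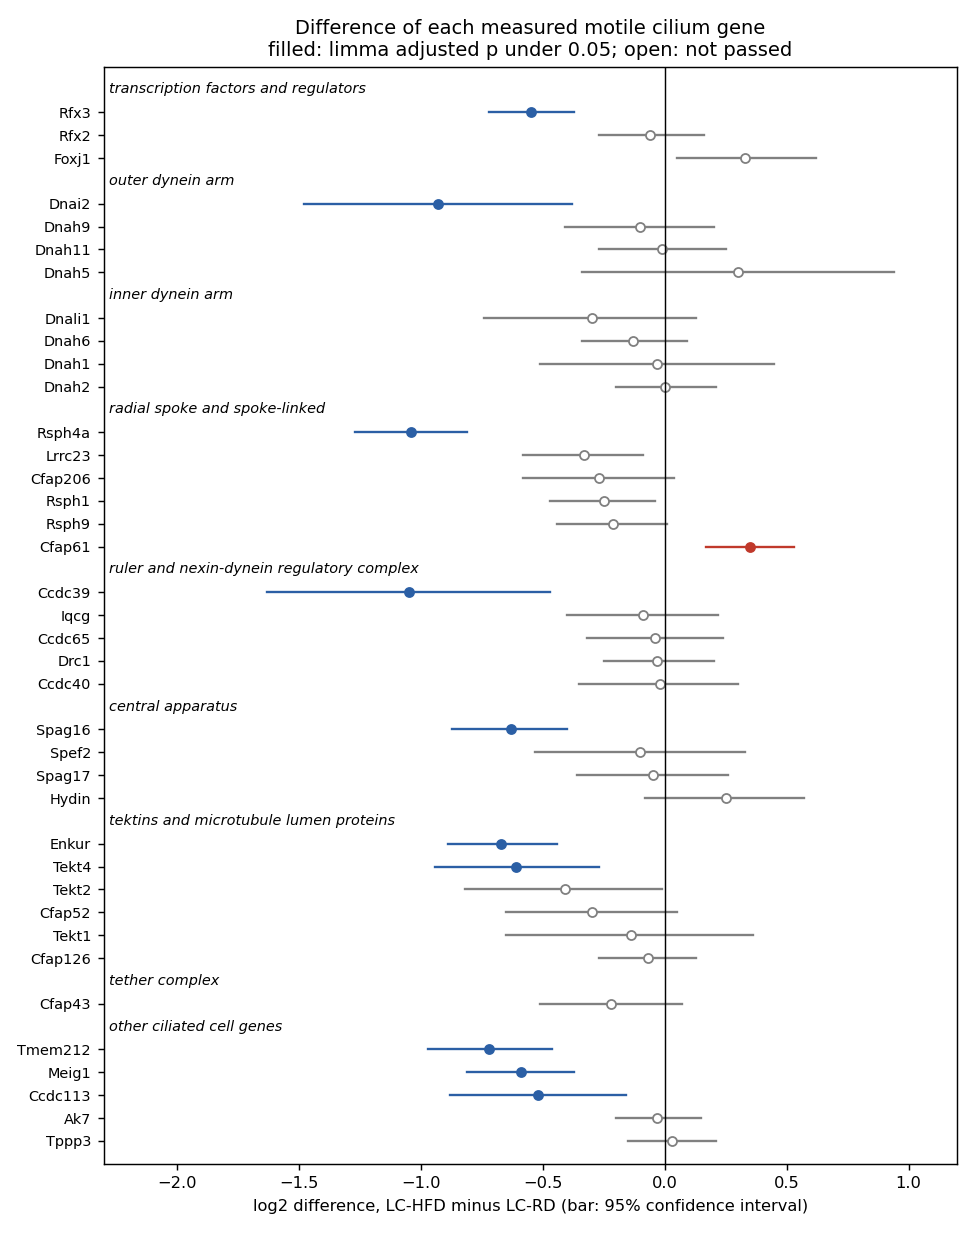
Log2 difference (LC-HFD minus LC-RD, x axis) of the 38 measured genes, ordered by their part in the cilium, with 95% confidence intervals from limma. Filled points passed the test (10 lower in blue, 1 higher in red) and open points did not. Lower members are spread over most parts of the cilium, while no inner dynein arm gene passed.

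Of the 3 regulators read, 1 was lower, against 16.2% over the brightest probe set of every gene. Rfx3, one of the RFX factors that drive ciliary genes, read 5.86, 5.76 and 5.85 in LC-HFD lungs and 6.34, 6.33 and 6.44 in LC-RD lungs. Every LC-HFD value lay under every LC-RD value, and the difference was -0.55 ± 0.0745 (SE, adjusted p = 0.00297), or 1.46-fold. Its second probe set, with a mean under 4, differed by 0.39 (adjusted p = 0.0925), and with the median over both probe sets as its value Rfx3 did not pass (-0.08, adjusted p = 0.539, range over 17 alternatives 0.000131 to 0.539). Foxj1, the master regulator of motile ciliogenesis, read 6.09, 6.18 and 6.41 in LC-HFD lungs and 5.83, 6.09 and 5.75 in LC-RD lungs. The groups touched at 6.09, and the difference of 0.33 (95% confidence interval 0.05 to 0.62) did not pass over all probe sets (adjusted p = 0.0882). It passed in 3 of 17 alternatives (adjusted p = 0.0287 to 0.225). Rfx2, a close relative of Rfx3, differed by -0.06 (95% confidence interval -0.27 to 0.16).

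Among the dynein arm genes, 1 of 8 was lower, a share under the 16.2% over the brightest probe set of every gene. Dnai2, an intermediate chain of the outer arm, read 4.32, 3.76 and 4.67 in LC-HFD lungs and 5.30, 5.35 and 4.90 in LC-RD lungs. The groups did not overlap, but LC-HFD replicate 3 and LC-RD replicate 3 lay close, and the difference was -0.93 ± 0.233 (SE, adjusted p = 0.0268). This call was lost without LC-HFD replicate 1 (adjusted p = 0.0517), LC-RD replicate 1 (0.0890) or LC-RD replicate 2 (0.0937), within a range of 0.00288 to 0.282 over 16 alternatives. Its probe set is of a type that can share probes with other transcripts, and its other probe set, with a mean under 4, differed by 0.29 (adjusted p = 0.0805). The outer arm motor chains Dnah5, Dnah9 and Dnah11 differed by 0.30, -0.10 and -0.01 and did not pass. Dnah5 had the widest interval of the members (-0.34 to 0.94), since LC-HFD replicate 2 read 5.54 and LC-HFD replicate 1 read 4.34. The inner arm chains Dnah1, Dnah2 and Dnah6 and the light chain Dnali1 had differences between -0.30 and 0.00, and none passed.

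The radial spoke genes held the member with the smallest adjusted p, Rsph4a, and the member that was higher, Cfap61. Rsph4a, a protein of the spoke head, read 4.09, 4.06 and 4.20 in LC-HFD lungs and 5.00, 5.29 and 5.18 in LC-RD lungs. The highest LC-HFD lung lay well under the lowest LC-RD lung, and the difference was -1.04 ± 0.0965 (SE, adjusted p = 0.000826), or 2.05-fold. It passed in all 16 alternatives that tested it (adjusted p = 4.54e-05 to 0.016). The other spoke head proteins Rsph1 (-0.25, adjusted p = 0.0822) and Rsph9 (-0.21, adjusted p = 0.143) did not pass, although their groups did not overlap. Lrrc23, of the third spoke, differed by -0.33 (adjusted p = 0.0563), also without overlap, and Cfap206, at the base of the second spoke, by -0.27 (adjusted p = 0.18).

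Cfap61, of the calmodulin- and spoke-associated complex, read 4.03, 3.92 and 3.95 in LC-HFD lungs and 3.54, 3.68 and 3.65 in LC-RD lungs. The groups did not overlap and the difference was 0.35 ± 0.076 (SE, adjusted p = 0.0168). Its mean of 3.80 lies in the range under 4, where dim probe sets carry little signal. The call was lost in 5 of 15 alternatives (adjusted p = 0.0147 to 0.417 over all 15), among them without LC-RD replicate 1 (0.0777), with an intensity trend and robust variance (0.0717), with the 3′ excess as a term (0.066) and as the median over its 3 probe sets (0.417).

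Ccdc39 and Ccdc40 together form the molecular ruler that spaces dynein arms and spokes along the doublet of the cilium. Ccdc39 passed and Ccdc40 did not, and the gap between their differences was not tested. Ccdc39 read 5.13, 4.25 and 5.28 in LC-HFD lungs and 5.93, 5.90 and 5.97 in LC-RD lungs. The LC-RD lungs were nearly alike and LC-HFD replicate 2 was the lowest, giving a difference of -1.05 ± 0.247 (SE, adjusted p = 0.0218), or 2.07-fold. The probe set of Ccdc39 is of a type that can match several transcripts. Without LC-HFD replicate 2 the difference was -0.73 (adjusted p = 0.0045). The call was lost without any one of the LC-RD replicates (adjusted p = 0.0676, 0.0674 and 0.069 for replicates 1, 2 and 3), within a range of 0.00117 to 0.244 over 16 alternatives, and the median over its 3 probe sets, of which the other pair had means under 4, differed by -0.17. Ccdc40 differed by -0.02 (95% confidence interval -0.35 to 0.30). Drc1, Ccdc65 and Iqcg, subunits of the nexin-dynein regulatory complex, differed by -0.03, -0.04 and -0.09 and did not pass, and Ccdc65 and Iqcg had means under 4.

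In the central apparatus, Spag16 was lower and its partners did not pass. Spag16, a scaffold protein of the central pair, read 4.36, 4.06 and 4.05 in LC-HFD lungs and 4.82, 4.76 and 4.79 in LC-RD lungs. The groups lay apart, with a difference of -0.63 ± 0.101 (SE, adjusted p = 0.00537). Leaving out any array did not end the call, but the median over its 4 probe sets differed by -0.17 (adjusted p = 0.379, range over 16 alternatives 0.00243 to 0.379). Hydin, a large protein of the central pair projections, differed by 0.25 (95% confidence interval -0.08 to 0.57), Spef2 by -0.10 and Spag17 by -0.05, the last with a mean under 4.

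All 6 genes of tektins and other proteins of the microtubule lumen had negative differences, and 2 of them passed. Over the brightest probe set of every gene, 8615 of 18193 differences were negative, and 16.2% were called lower. Enkur, an inner protein of the doublet, read 5.25, 5.33 and 5.31 in LC-HFD lungs and 5.97, 6.12 and 5.81 in LC-RD lungs. Its LC-HFD values were nearly alike, and the difference of -0.67 ± 0.095 (SE, adjusted p = 0.00357) passed in all 16 alternatives that tested it (adjusted p = 0.000387 to 0.0449). Tekt4, a filament protein of the doublet wall, read 4.03, 4.33 and 3.80 in LC-HFD lungs and 4.78, 4.66 and 4.53 in LC-RD lungs. Its difference was -0.61 ± 0.142 (SE, adjusted p = 0.0212), and the call was lost without LC-RD replicate 1 (adjusted p = 0.0798) or LC-RD replicate 2 (0.0706), within a range of 0.00922 to 0.0894 over 16 alternatives. Tekt2 (-0.41, adjusted p = 0.123), Cfap52 (-0.30, adjusted p = 0.178), Tekt1 (-0.14, adjusted p = 0.652) and Cfap126 (-0.07, adjusted p = 0.57) did not pass. Cfap43, which with Cfap44 tethers an inner dynein to the doublet, differed by -0.22 (adjusted p = 0.221).

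Of the 5 remaining ciliated cell genes, 3 were lower, against 16.2% over the brightest probe set of every gene. Tmem212, a membrane protein used as a marker of ciliated cells, read 6.60, 6.85 and 6.98 in LC-HFD lungs and 7.54, 7.56 and 7.48 in LC-RD lungs. All LC-HFD lungs lay under the LC-RD lungs, with a difference of -0.72 ± 0.107 (SE, adjusted p = 0.00428), which passed in all 17 alternatives (adjusted p = 3.64e-05 to 0.0472). Meig1, known in mice for its part in building the sperm tail, read 3.74, 3.95 and 3.93 in LC-HFD lungs and 4.57, 4.45 and 4.37 in LC-RD lungs. The difference was -0.59 ± 0.092 (SE, adjusted p = 0.00489) and passed in all 16 alternatives that tested it (adjusted p = 0.00204 to 0.0328).

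Ccdc113, a coiled-coil protein needed for cilium formation, read 4.30, 4.07 and 4.29 in LC-HFD lungs and 4.81, 4.99 and 4.41 in LC-RD lungs. LC-RD replicate 3 lay just above the LC-HFD lungs, and the difference of -0.52 ± 0.153 (SE, adjusted p = 0.0454) passed narrowly. It was lost without any one of the 3 LC-HFD replicates (adjusted p = 0.0668, 0.114 and 0.0778 for replicates 1, 2 and 3) and without LC-RD replicate 1 or 2 (0.135 for each), within a range of 0.0157 to 0.337 over 16 alternatives. Tppp3, a tubulin-binding protein, read 9.73, 9.88 and 9.75 in LC-HFD lungs and 9.79, 9.79 and 9.70 in LC-RD lungs. Its groups overlapped, and its difference of 0.03 had a 95% confidence interval of -0.15 to 0.21. Ak7, an adenylate kinase of the cilium, differed by -0.03 (95% confidence interval -0.20 to 0.15).

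**Figure D3:**
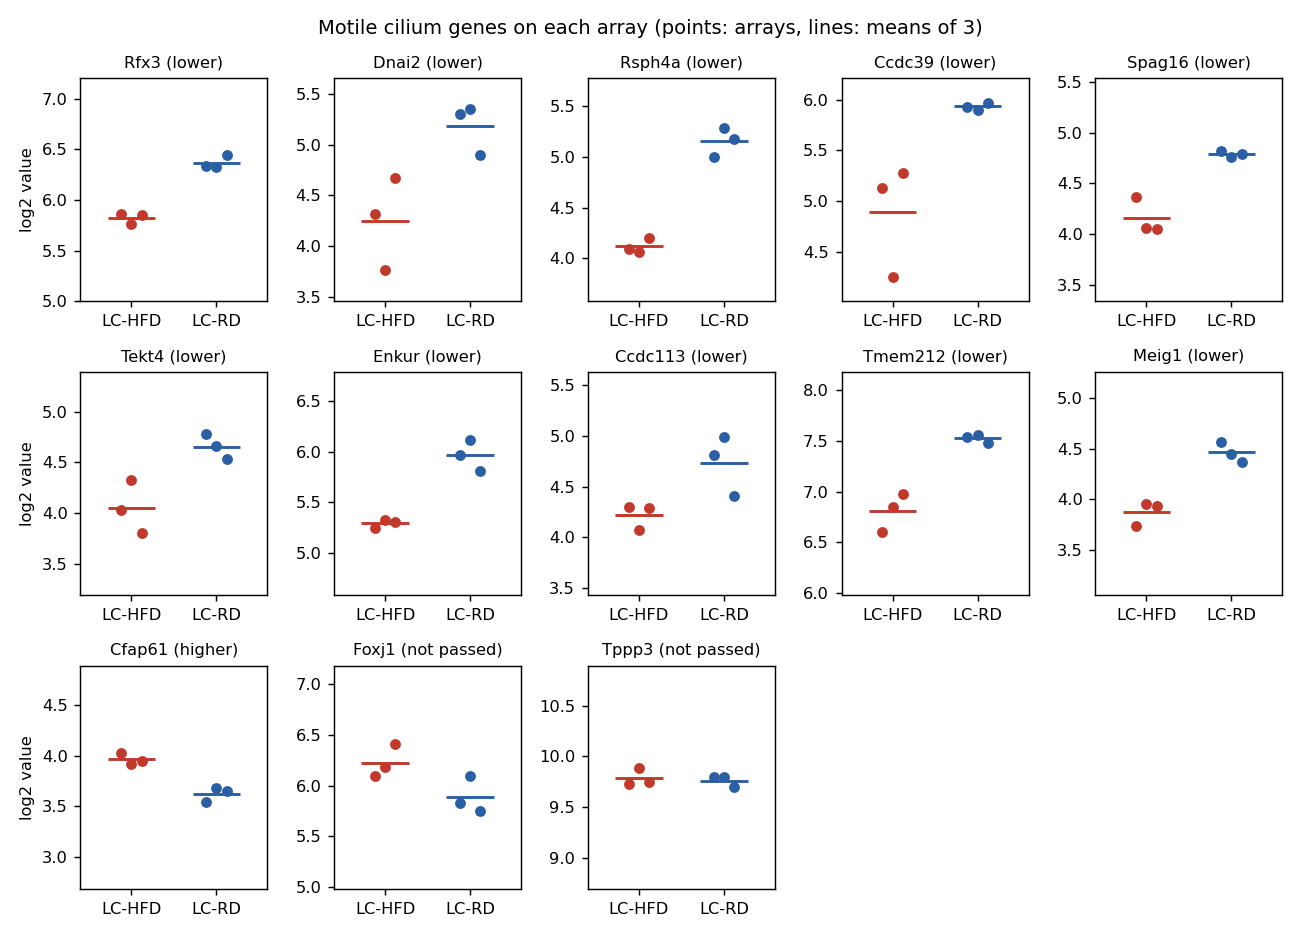
Log2 values of the 11 genes that passed and of Foxj1 and Tppp3, with 1 panel a gene, LC-HFD lungs in red on the left and LC-RD lungs in blue on the right. Points are arrays, lines are means of 3, and every panel spans the same number of log2 units. The groups of the 10 lower genes and of Cfap61 do not overlap, Ccdc39 and Dnai2 have a wide spread in LC-HFD lungs, and the groups of Tppp3 overlap.

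The calls followed the level of the probe set in part. Among members whose mean over the arrays was 6 or more, 2 of 10 were lower and none higher, against 23.4% lower and 12.1% higher among the brightest probe sets of all genes at that level. Between 4 and 6, 8 of 24 were lower and none higher, against 17.9% lower and 11.9% higher. Under 4, none of 4 was lower and 1 was higher, against 2.17% lower and 8.53% higher. The 27 members that did not pass had 22 negative and 5 positive differences. Negative differences numbered 8615 of 18193 over the brightest probe set of every gene, passed or not. All 27 of the members' 95% confidence intervals lay within 1 log2 unit of 0, so that a change beyond 2-fold was outside each interval. The median SD over the members was 0.138 in LC-HFD lungs and 0.0963 in LC-RD lungs. Over the brightest probe set of every gene it was smaller, at 0.118 in LC-HFD and 0.082 in LC-RD lungs. Over all probe sets, many of them dim, it was 0.137 and 0.0944. The members had 23 further probe sets, of which 19 had means under 4, and none was called, with 16 positive and 7 negative differences. Positive differences numbered 25176 of 45037 over all probe sets.

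Other genes of the cilium were counted in the same way. Of 67 further axoneme genes, 7 were lower and 3 higher (median difference -0.10). The share of lower calls, 10.4%, was under that over all probe sets. Cfap54, of the central apparatus, was lower by the largest amount (-0.92 ± 0.124 SE, adjusted p = 0.00294), followed by the spoke stalk protein Ropn1l (-0.72, adjusted p = 0.0101) and the sperm surface and flagellar protein Spa17 (-0.68, adjusted p = 0.00516). Odad1 (0.34, adjusted p = 0.0221) and Cfap57 (0.35, adjusted p = 0.0345) were higher, with means of 5.65 and 5.53. Rsph6a, a relative of Rsph4a known mainly from testis, was also higher (0.60, adjusted p = 0.0164), with a mean of 3.65. Without LC-RD replicate 1 or LC-RD replicate 2, 6 of these genes were called in place of 10, and in the fit with the 3′ excess as a term 2 were called, with the calls of Ropn1l, Spa17 and Rsph6a lost.

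Intraflagellar transport carries building blocks along all cilia, motile and primary. Of its 29 genes, 13 were lower (44.8%) and 1 was higher (3.45%), with a median difference of -0.26. Of these genes, 25 had means of at least 6, where 23.4% of the brightest probe sets of all genes were lower and 12.1% higher. Ift70b read 5.80, 5.54 and 5.67 in LC-HFD lungs and 6.97, 7.12 and 7.04 in LC-RD lungs, a difference of -1.37 ± 0.0915 (SE, adjusted p = 0.000276). Its close copy Ift70a1 differed by -1.22 (adjusted p = 0.00447), and probes for one may read the other. Ift81, which carries tubulin, differed by -0.69 (adjusted p = 0.00183) and Ift25, a subunit of the same complex, by -0.61 (adjusted p = 0.00267). The count of 14 called genes was 6 without LC-RD replicate 1, 6 without LC-RD replicate 2, 8 without LC-RD replicate 3 and 3 in the fit with the 3′ excess as a term.

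Multiciliated cells make many centrioles before they make cilia. Of 18 genes of that program, 7 were lower (38.9%) and 1 was higher (5.56%), with a median difference of -0.21. Over the brightest probe set of every gene, 16.2% were lower and 11.1% higher, and at means of at least 6 the lower share was 23.4%. The centriole genes Plk4 (-0.88, adjusted p = 0.000698), Stil (-0.84, adjusted p = 0.00397) and Sass6 (-0.79, adjusted p = 0.0101) were lower, and these also serve centriole duplication in dividing cells. E2f4, a transcription factor of centriole amplification, was higher (1.07 ± 0.094 SE, adjusted p = 0.000698). In the fit with the 3′ excess as a term, 3 of these genes were called in place of 8, with the calls of Stil and Sass6 lost, and Plk4 did not pass as the median over its probe sets. Of 18 genes of the BBSome and ciliary trafficking, which serve primary cilia too, 7 were lower (38.9%, against the same shares) and none higher (median difference -0.29). They included Cep290 of the transition zone (-1.02, adjusted p = 0.0014), Bbs10 (-0.86, adjusted p = 0.00112), Bbs5 (-0.58, adjusted p = 0.0106) and Ttc8 (-0.57, adjusted p = 0.00411). The calls of Bbs5 and Ttc8 were lost with the 3′ excess as a term.

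**Figure D4:**
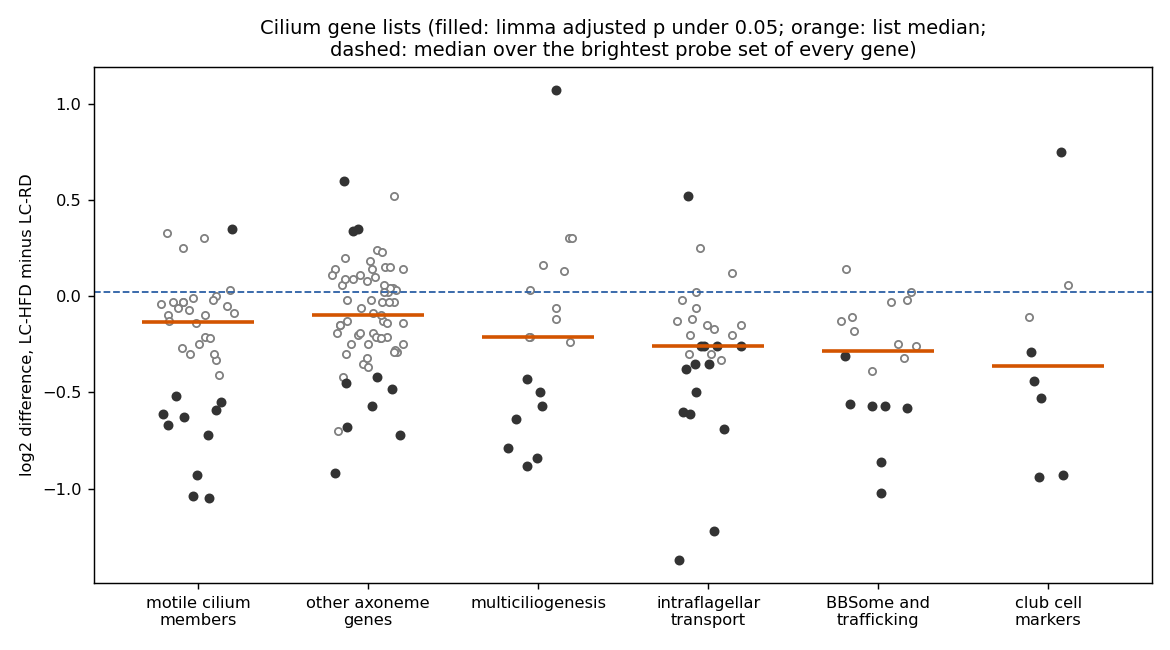
Log2 differences (LC-HFD minus LC-RD, y axis) of the motile cilium genes, 4 further lists of cilium genes, and club cell markers, with 1 point a gene. Filled points passed limma's test, orange lines are list medians and the dashed line is the median of 0.02 over the brightest probe set of every gene. All 6 list medians lie under the dashed line, from -0.10 for the other axoneme genes to -0.36 for club cell markers.

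Some markers of neighbouring airway cells also passed the test. Over the brightest probe set of every gene, 16.2% were lower and 11.1% higher. At means of at least 6, which 7 of the 8 club cell markers had, these shares were 23.4% and 12.1%. Of 8 club cell markers, 5 were lower and 1 higher (median difference -0.36), and their array means were 10.4 to 10.5 in LC-HFD lungs and 10.7 to 10.8 in LC-RD lungs. Cldn10 differed most (-0.94, adjusted p = 0.00409), while Scgb1a1, which defines club cells, differed by -0.11 (adjusted p = 0.261). Scgb1a1 had means of 13.5 in LC-HFD and 13.6 in LC-RD lungs, where a ceiling of the signal may hide a difference. Of 8 goblet cell markers, 3 were higher and none lower, with array means of 4.76 to 4.81 in LC-HFD lungs and 4.22 to 4.30 in LC-RD lungs. Clca1, a product of mucous cells, read 4.62, 4.11 and 3.93 in LC-HFD lungs and 2.13, 2.49 and 2.31 in LC-RD lungs (adjusted p = 0.000928), and since its mean of 3.27 lies in the range under 4 the size of this difference is uncertain. None of 6 basal cell markers passed (array means 4.07 to 4.35 in LC-HFD and 3.74 to 3.85 in LC-RD lungs). The part of these cell types in the values of the cilium genes was not tested.

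Cells outside the airway that also use axonemes or could be carried along were checked with marker lists. Shares to set beside these counts are 16.2% lower and 11.1% higher over the brightest probe set of every gene. At means of at least 6 they are 23.4% and 12.1%, and under 4 they are 2.17% and 8.53%. All 4 ependymal markers had means under 4 and none passed. Of 10 spermatid genes, 8 had means under 4, while 4 were higher and 1 lower (array means 4.02 to 4.26 in LC-HFD and 3.80 to 3.86 in LC-RD lungs). Prm1 was higher, at 11.4 in LC-HFD and 10.5 in LC-RD lungs, from a probe set of a type that can share probes with other transcripts. The other higher genes, Prm2, Odf1 and Acrv1, all had means under 4. The lower gene was Odf2 (-0.54, adjusted p = 0.00253), with a mean of 7.77, well above the 8 genes under 4. Whether Odf2 or Prm1 reads spermatids in this tissue was not tested. Of 6 cardiac muscle markers, 3 were lower and none higher, with array means of 4.38 to 4.53 in LC-HFD and 4.76 to 5.03 in LC-RD lungs, and Myl7 differed by -1.36 (adjusted p = 0.000537). Markers called higher and lower numbered 4 and 2 of 8 for endothelium, 2 and 0 of 8 for smooth muscle and pericytes, 2 and 0 of 7 for macrophages, 1 and 1 of 6 for lymphocytes, 1 and 0 of 7 for alveolar type II cells and 1 and 1 of 8 for alveolar type I cells. Their part in the values of the cilium genes was not tested.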

How the data were processed

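Total RNA of 6 whole lungs, 3 LC-HFD and 3 LC-RD, was labelled with biotin and hybridized to Affymetrix mouse genome arrays. The authors deposited log2 values, 1 per probe set and array, made with GCRMA according to the submitters' processing notes, which give no version. GCRMA corrects background by probe sequence, so that dim probe sets carry little information, and values under a mean of 4 were named as such. The number of arrays limits the precision. Of 45101 probe sets, 64 controls were left out. The platform annotation gave 1 gene for 34958 probe sets, several for 932 and none for 9211, and a gene was read only from probe sets with 1 gene.

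LC-HFD was compared with LC-RD by limma 3.58.1 in R 4.3.3 (lmFit and eBayes, two-sided, no covariate), with Benjamini-Hochberg adjustment over 45037 probe sets and a threshold of 0.05. The procedure was tested on simulated data. The members and gene lists were chosen with earlier results of these data known. Values on every array were to be given for the called member with the largest difference in each role, for Foxj1 and for called members over 2-fold, and for other lists up to 4 called genes with the largest differences. Tekt4, Meig1, Ccdc113, Cfap61, Tppp3, Ift70b, Clca1 and Sftpc were added to those given on every array after their values were seen. Odad1 and Cfap57 were named beyond the 4 genes of their list, also after their values were seen. Motifs were searched in RefSeq promoter windows of GRCm38.p6. Alternatives were other tests and variance models, array weights, quantile normalization, median centring, filters at means of 4 and 6, the median over a gene's probe sets, other adjustments and covariates, a replicate block, and leaving out each array.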

Additional observations from a re-analysis of the deposited data

How the results depend on the processing

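With the main settings 10 members were lower, 1 was higher and 2 passed with over 2-fold, and 17 alternatives were run, none of which turned the direction of any member's difference that passed. The count of lower members was 6 with the methods' t-test (without Dnai2, Ccdc39, Tekt4 and Ccdc113), 4 when only probe sets with a mean of at least 6 were tested (10 members), and 6 with the excess of 3′ over 5′ control signal as a covariate. Leaving out each array gave 6 to 11 lower members, 0 to 1 higher, 0 to 3 over 2-fold and a median difference of -0.23 to -0.14. The count of higher members was 2 with quantile normalization and 0 with a filter at a mean of 4 and with the covariate. The count over 2-fold was 1 with the methods' t-test, array weights or the median over probe sets, and 0 with a filter at 6 or the covariate. The median difference was -0.20 with array weights, -0.22 with a filter at 4 and -0.20 with the covariate. The called further axoneme genes numbered 10, and 16 with an intensity trend and robust variance, 5 with a filter at 6 (11 genes tested), 2 with the covariate and 6 to 12 without single arrays. The called intraflagellar transport genes numbered 14, and 9 with quantile normalization, 3 with the covariate and 6 to 11 without single arrays. The called multiciliogenesis genes numbered 8, and 4 with a filter at 6 (6 genes tested) and 3 with the covariate. The filters test fewer genes, and for the other changes the cause was not tested. The alveolar marker Abca3, higher by 0.30 in LC-HFD lungs, differed by -0.11 (adjusted p = 0.19) as the median over its probe sets. Replicate numbers did not pair the arrays: deviations of same-numbered arrays correlated at -0.0431, -0.093 and -0.0303, and no array matched best with its own number. With the replicate block 8 members were lower and 0 higher, with the calls of Dnai2, Ccdc113 and Cfap61 lost, and 8 intraflagellar transport genes were called. Signal and the number of arrays limit what could be seen: 15 of the 27 members that did not pass had intervals within 0.5 log2 units of 0.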
